A study of Homo sapiens with 12 samples.

Results

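The proteasome genes were followed in cancer cells that had been evolved under hydroxychloroquine (HCQ) and in their control cells. Members were the rows of the gene count table whose symbol starts with PSMA, PSMB, PSMC, PSMD, PSME, PSMF or PSMG, together with POMP, leaving out PSMB8, PSMB9, antisense symbols and pseudogene symbols. This gave 48 of 28278 symbols. In each line 45 of them were tested, having reached a level of 1 CPM (count scaled to a common library size) or more in 3 libraries. The rule also takes in PSMC3IP, which is named for its binding to PSMC3 but acts in meiotic recombination, and it leaves out subunits with other symbols such as ADRM1 and SEM1.

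The proteasome is the barrel-shaped protease that degrades proteins tagged with ubiquitin. Its 20S core is a stack of alpha and beta rings, with the active sites on the beta subunits PSMB5, PSMB6 and PSMB7, and the 19S particle on its ends recognises, unfolds and feeds in the substrate. Dedicated chaperones build both parts, and the factor NFE2L1 raises transcription of the subunits when the protease is inhibited. HCQ blocks degradation in the lysosome, the other main route by which cells dispose of proteins.

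Bulk mRNA-seq was available for 12 libraries in 4 groups of 3. OVCAR3 is labelled as an ovarian and CCL218 as a colorectal cancer line. The control groups were cells of passage 19 grown without HCQ, and the HCQ-evolved groups were cells of passage 15 that had received 15 pulse-chases of 48 h each and had then been free of the drug for 7 days. Within a group the pools L, M and R gathered wells by their position on one plate, so each p-value measures the spread between pools of one plate. No gene was engineered in either line, and the passage numbers of control and evolved cells differed together with the treatment, so the effects of passage and of HCQ cannot be told apart.

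Total counts ranged from 31147822 to 59965861 per library. The libraries labelled OVCAR3 held colorectal markers. The summed level of 10 colorectal genes was 971 to 1140 CPM in OVCAR3 control pools, 240 to 705 in OVCAR3 HCQ-evolved pools, 1220 to 1640 in CCL218 control pools and 1260 to 1310 in CCL218 HCQ-evolved pools, with KRT20, GUCY2C and CDX1 at or near 0 throughout. The summed level of 8 ovarian genes was 40.5 to 63.3, 42.2 to 66.6, 64.3 to 123 and 107 to 146 CPM in those groups, with ESR1, SOX17 and EMX2 at or near 0. MSLN was the largest part of the ovarian sum in CCL218 pools, at 46.6 to 128.8 CPM, against 2.23 to 17.5 CPM in OVCAR3 pools. MUC16 was mostly higher in OVCAR3 pools, at 13.0 to 50.6 CPM, against 3.67 to 14.0 CPM in CCL218 pools. The lowest colorectal sum, 240 CPM, was that of OVCAR3 HCQ-evolved pool R alone. LGALS4 was the largest part of the colorectal sum in every pool. CDH17 had 2.4 to 4.9 CPM in CCL218 control pools and 45 to 58 CPM in evolved pools. GPA33 had 3.7 to 5.4 and 32 to 37 CPM, and CDX2 21 to 26 and 63 to 72 CPM. LGALS4 went the other way, at 882 to 1342 and 740 to 837 CPM. In OVCAR3 control pools CDH17 had 2.6 to 3.7 CPM and GPA33 2.7 to 3.4 CPM. Markers of blood, stroma and endothelium (PTPRC, COL1A1 and PECAM1) summed to between 2.52 and 4.62 CPM in every pool. OVCAR3 and CCL218 are therefore used below as the names of the labels, and the part of line identity in the results was not tested.

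Most of the machinery was expressed at moderate level in all 12 libraries. Members took between 0.444% and 0.627% of all counts in a pool. Per kilobase of transcript, mean levels of 13 subunits of the 20S core in OVCAR3 control pools ran from 35.4 CPM per kb for PSMA5 to 334 for PSMA7, both of the alpha ring. For 17 subunits of the 19S particle the lowest mean level was 5.66 CPM per kb for PSMC1 and the highest was 154 for PSMD8, a lid subunit. The order at both ends was the one found in the other 3 groups. PSMC1 has 13 pseudogenes in GENCODE 44 and a long annotated transcript of 4390 bases, so its level is uncertain.

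A few members were close to absent. PSMA8, an alpha subunit of the testis, had 0 counts in every library, which allows up to 3 counts in each. PSMB11, a beta subunit of thymus epithelium, had 0 to 4 counts. PSMB3 also had 0 to 4 counts per library, although every 20S core contains it. It has 2 pseudogenes in GENCODE 44. Whether reads were lost to them or in another way was not tested, so these counts cannot be read as its level. Of the inducible subunits of the immunoproteasome left out by the rule, PSMB9 was listed at 0 in every pool and PSMB8 had 6 to 76 counts, or 0.19 to 1.34 CPM.

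In OVCAR3 no member changed at an adjusted p under 0.05 in edgeR's quasi-likelihood test, in either direction. DESeq2 and limma voom also called 0 members. Over all genes tested edgeR called 0.647% higher and 1.21% lower. Of the same 12204 genes DESeq2 called 542 higher and 563 lower, and voom called 106 and 187. At an unadjusted p under 0.05 there was 1 member higher and 0 lower in edgeR, beside 8.38% and 7.87% of all genes. DESeq2 and voom had 1 member higher each at that level. Beside it stood 1208 genes higher and 1161 lower in DESeq2, and 1039 and 1015 in voom. The members' median log2 fold change was 0.049, with 28 above and 17 below 0 and a range of -0.54 to 0.55. The median over all 12204 genes was 0.016. In bulk RNA, fewer cells that express a gene and less of its RNA per cell cannot be told apart.

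The member at an unadjusted p under 0.05 was PSMD2, a scaffold of the 19S base (chr3:184299198-184309050, hg38, plus strand). Its level was 137, 176 and 187 CPM in OVCAR3 control pools L, M and R, and 235, 216 and 247 CPM in HCQ-evolved pools. All 3 evolved pools lay above all 3 control pools. The log2 fold change was 0.46 (SE 0.18, n = 3 pools per group, edgeR quasi-likelihood adjusted p = 0.261). With the trend of fold change on transcript length and GC content removed it was 0.52, and PSMD2 was then 1 member called higher (adjusted p = 0.0496), beside 4.66% of all genes called higher by that fit. With plate position added to that fit as a block the call was lost (0.53, adjusted p = 0.157).

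The pools of 3 further members were apart in the upward direction in OVCAR3. They were PSMD1, the other large scaffold of the base, PSMC1, a base ATPase, and PSMD14, the lid enzyme that removes ubiquitin chains. Pools were thus apart and higher for 4 of 45 members, beside 14.5% of all genes. For PSMC1 the control pools had 17.5, 28.0 and 29.0 CPM and the evolved pools 32.5, 34.2 and 35.0 CPM. Control pool L stood lowest by a wide margin, and the log2 fold change was 0.43 (SE 0.23, adjusted p = 0.411).

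PSMF1, which encodes the proteasome inhibitor PI31, was the 1 member with pools apart and lower in OVCAR3, beside 11.4% of all genes. It had 148, 142 and 126 CPM in control pools and 115, 104 and 118 CPM in evolved pools. The groups did not overlap, but the log2 fold change of -0.32 (SE 0.17) had an adjusted p of 0.391 in edgeR.

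Catalytic subunits stayed within the spread between pools in OVCAR3. PSMB5, which carries the chymotrypsin-like site, had 90.5, 81.6 and 125 CPM in control pools and 114, 131 and 68.0 CPM in evolved pools. Evolved pool R was the lowest of the 6 and evolved pool M the highest. The log2 fold changes were 0.049 (SE 0.28) for PSMB5, 0.041 (SE 0.30) for PSMB6, the caspase-like subunit, and -0.11 (SE 0.22) for PSMB7, the trypsin-like subunit. PSMB10, the inducible partner of PSMB7, had 96.4, 43.8 and 65.1 CPM in control pools and 77.9, 80.5 and 27.9 CPM in evolved pools. Its groups overlapped widely, and its log2 fold change was -0.17 (SE 0.44).

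In CCL218 the 20S maturation factor POMP fell and no member rose at an adjusted p under 0.05. POMP helps beta subunits onto the alpha ring and is degraded as the first substrate of the finished core. It was 1 member lower of 45 in edgeR, beside 2.64% of all genes called lower and 3.82% called higher. At an unadjusted p under 0.05 edgeR had 3 members lower (POMP, PSMC3 and PSMD13) and 0 higher, beside 12.7% and 12.5% of all genes. From single-cell RNA the paper inferred selected losses of chromosomes 11 and 13 in HCQ-resistant CCL218 cells. For OVCAR3 it inferred selected gains of chromosome 13. POMP lies on chromosome 13, and PSMC3 and PSMD13 lie on chromosome 11. PAAF1, a pathway gene that rose in CCL218 (below), lies on chromosome 11 too. The part of copy number in these changes was not tested. No member was called higher by DESeq2 or voom, beside 1104 and 537 of 12241 genes. DESeq2 called 2 members lower, POMP and PSMC3, beside 8.72% of all genes. In voom 1 member was called lower, beside 362 of 12241 genes.

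POMP (chr13:28659065-28678959, hg38, plus strand) had 163, 110.0 and 133 CPM in CCL218 control pools L, M and R. In the HCQ-evolved pools it had 88.0, 77.8 and 79.9 CPM. All 3 evolved pools lay below the lowest control pool, with means of 135 ± 26.7 CPM in control and 81.9 ± 5.38 CPM in evolved pools (SD, n = 3). The log2 fold change was -0.75 (SE 0.17, edgeR quasi-likelihood adjusted p = 0.0498). Leaving out 1 pool at a time gave log2 fold changes of -0.88 to -0.59 and adjusted p-values of 0.0032 to 0.244, and the call was lost without control pool R or any of the evolved pools. With plate position as a block the adjusted p was 0.0112, and with all 12 libraries in one fit it was 0.132. POMP has 1 pseudogene in GENCODE 44.

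In OVCAR3 POMP had 229, 150.1 and 234 CPM in control pools and 293, 322 and 162 CPM in evolved pools. Evolved pools L and M were the highest of the 6 and evolved pool R was close to the lowest control pool. The log2 fold change was 0.32 (SE 0.29, edgeR adjusted p = 0.649), and the CCL218 change minus the OVCAR3 change was -1.05 (SE 0.37, adjusted p = 0.322), which did not pass the test.

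**Figure D1:**
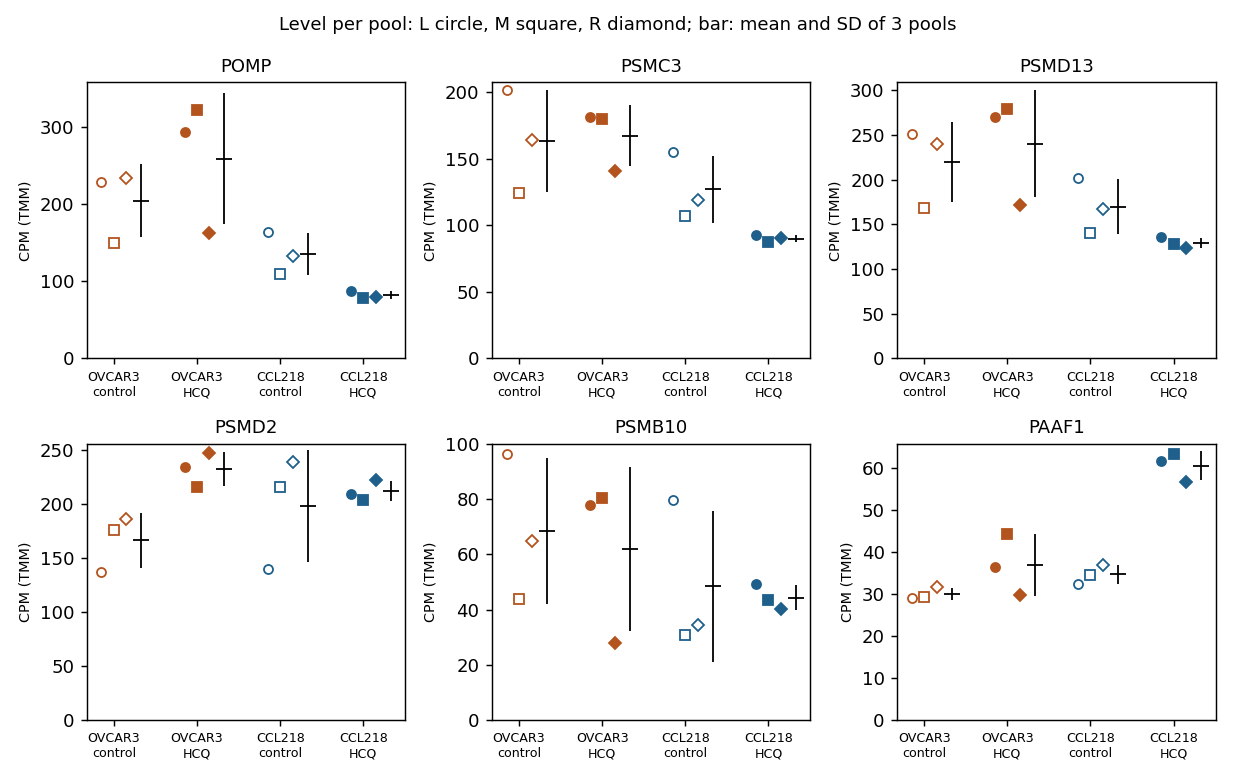
Levels in CPM, scaled by TMM, of 5 proteasome genes and the chaperone PAAF1 in each pool (L, M and R by marker shape), with control pools open, HCQ-evolved pools filled, and the mean and SD of 3 pools as a bar. POMP lies between 77.8 and 88.0 CPM in CCL218 evolved pools and at 110.0 CPM or above in control pools, and PAAF1 lies above its controls in all 3 CCL218 evolved pools.

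The ATPase ring of the 19S base was mixed in CCL218. PSMC3, an ATPase of the ring, had 155, 107 and 119 CPM in control pools and 92.4, 87.5 and 90.2 CPM in evolved pools. The pools did not overlap, and the evolved pools were close together. The log2 fold change was -0.53 (SE 0.17, edgeR adjusted p = 0.113). With the length and GC trend removed it was -0.40 and 2 members, POMP and PSMC3, were called lower (adjusted p = 0.00488 and 0.0224), beside 7.67% of all genes called lower.

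PSMC2 was lower without overlap, at 111, 94.8 and 103 CPM in control pools against 89.6, 82.5 and 89.9 CPM in evolved pools. Its log2 fold change was -0.26 (SE 0.12, adjusted p = 0.238) in CCL218 and 0.32 (SE 0.19, adjusted p = 0.460) in OVCAR3. The difference of -0.56 (SE 0.22) had an adjusted p of 0.399. PSMC4 was also lower without overlap in CCL218, with a log2 fold change of -0.30 (SE 0.17, adjusted p = 0.315), while PSMC1 was higher without overlap at 0.34 (SE 0.26, adjusted p = 0.436). PSMC1 had 15.0, 29.2 and 31.3 CPM in control pools and 31.6, 32.1 and 33.1 CPM in evolved pools. Control pool L again stood lowest, and without it the log2 fold change was 0.074.

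PSMD13, a lid subunit, had 202, 140.3 and 167 CPM in CCL218 control pools and 135, 128 and 124 CPM in evolved pools. Its groups did not overlap, although control pool M lay close to evolved pool L. The log2 fold change was -0.42 (SE 0.16, adjusted p = 0.164), and -0.27 without control pool L. The lid subunits PSMD3 and PSMD12 had lower pools without overlap, with log2 fold changes of -0.28 and -0.16 and adjusted p-values of 0.306 and 0.401. For PSMD12 the pools nearly touched, at 135.1 CPM in control pool M and 135 CPM in evolved pool R. PSMF1 was lower without overlap in this line too, at -0.16 (SE 0.12, adjusted p = 0.433). Pools were apart and lower for 8 of 45 members and apart and higher for 1, beside 16.3% and 19.8% of all genes.

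Taken by role, several groups in CCL218 had every estimate below 0 with all pools in the fit, with POMP alone passing the test, but some of these signs rested on control pool L. All 5 chaperones of 20S assembly were below 0, with a median log2 fold change of -0.51. Besides POMP these are PSMG1 to PSMG4, which assemble the alpha ring, and their estimates of -0.64 to -0.21 had SEs of 0.17 to 0.37. The 3 catalytic and 3 structural beta subunits tested were below 0, as were all 5 activators and inhibitors, namely PSME1 to PSME4 and PSMF1. Of 7 alpha subunits 5 were below 0, of 8 lid subunits 7, and of 6 ATPases 4. The 3 non-ATPase subunits of the base had a median of 0.075. Without control pool L, 11 of 45 members changed sign, among them PSMD1, PSMD2 and PSMD7 from above to below 0. Among the 20S chaperones, structural beta subunits, activators and inhibitors, PSMG2, PSMB1, PSME1 and PSME2 were then above 0, at 0.16, 0.14, 0.046 and 0.077. The median of the 20S chaperones was -0.059. The catalytic subunits were below 0 in that fit too.

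Across the 45 members the median log2 fold change in CCL218 was -0.16, with 8 above and 37 below 0, or 13 above and 32 below without control pool L. The median over all 12241 genes tested was -0.017, with 5916 above and 6325 below 0. Leaving out 1 pool at a time kept the members' median between -0.24 and -0.10. In OVCAR3 it moved between -0.052 and 0.24 in that check, crossing 0.

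**Figure D2:**
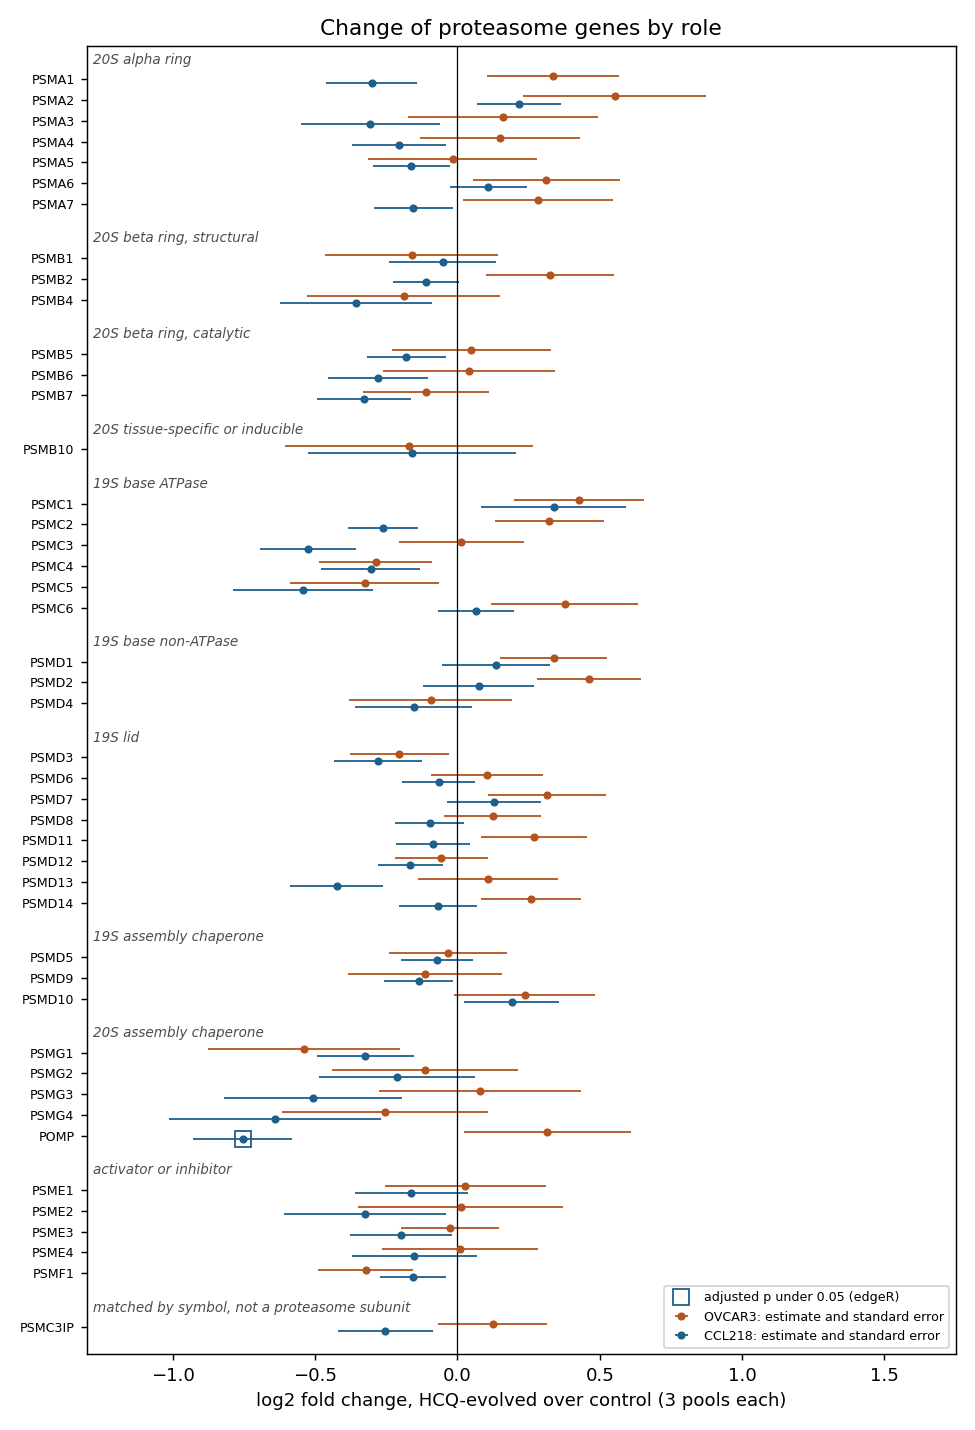
Log2 fold change of HCQ-evolved over control pools (points, with the standard error as lines) for the 45 members tested, grouped by role, in OVCAR3 (orange) and CCL218 (blue). A square marks an adjusted p under 0.05 in edgeR, which POMP in CCL218 alone reached. All 5 chaperones of 20S assembly have CCL218 estimates below 0, of which PSMG2 turns above 0 without control pool L.

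No catalytic subunit passed the test in CCL218 either, and all 3 estimates lay below the members' median of -0.16. PSMB5 had 74.0, 68.7 and 76.2 CPM in control pools and 75.1, 60.2 and 61.5 CPM in evolved pools. PSMB6 had 76.8, 54.1 and 63.4 CPM against 61.5, 49.0 and 52.6 CPM. PSMB7 had 82.2, 58.5 and 65.9 CPM against 60.1, 56.1 and 51.5 CPM. In each case at least 1 evolved pool lay within the control range. The log2 fold changes were -0.18 (SE 0.14), -0.28 (SE 0.18) and -0.33 (SE 0.17), with edgeR adjusted p-values of 0.445, 0.355 and 0.264.

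PSMB10 depended on 1 library. It had 79.9, 30.8 and 34.5 CPM in CCL218 control pools and 49.4, 43.4 and 40.2 CPM in evolved pools. Control pool L was the highest of the 6 and control pools M and R the lowest. The log2 fold change was -0.16 (SE 0.37) with all pools and 0.42 without control pool L (adjusted p = 0.0237). Without that pool PSMB10 was 1 member called higher, beside 13.6% of all genes, and 4 members were called lower (POMP, PSMC3, PSME3 and PSME4), beside 11.6% of all genes.

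The members tended to move together from pool to pool, in most pools along with transcript length. The median annotated transcript of the members was 1518 bases, against 3232 bases over all genes tested in OVCAR3. In OVCAR3 control pool M the median member lay 0.34 below its line's mean on the log2 scale (-0.34, with 7 of 45 members above the mean), and in evolved pool R it lay at -0.36 with 8 of 45 above. Both are the pools in which longer transcripts ran high. Spearman's rho across genes between a gene's deviation and its transcript length was 0.54 and 0.573 there, against -0.366 to -0.45 in the other 4 pools. Control pool L, at -0.366, had a median member deviation of only 0.016, with 24 of 45 members above the mean.

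In CCL218, control pool L had a median member deviation of 0.22, with 34 of 45 members above the mean and a rho of -0.508. Shorter members tended to be high and longer ones low, with exceptions on both sides. POMP (1338 bases) and PSMG4 (785 bases) were at their highest in this pool, while PSMD2 (2913 bases) and PSME4 (7250 bases) were at their lowest of the 6 CCL218 pools. Against that tendency PSMF1 (8154 bases) was at its highest there and PSMA2 (1434 bases) at its lowest. Over the 45 members alone rho was -0.584 in this pool and 0.693 in control pool M. Control pool R ran differently, with 32 of 45 members above the mean (median 0.11). Its rho was 0.0375 across all genes and 0.43 over the members. These correlations are across genes of single libraries, which are not independent replicates, and the part of this trend in each result above was not tested beyond the fits with the trend removed.

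**Figure D3:**
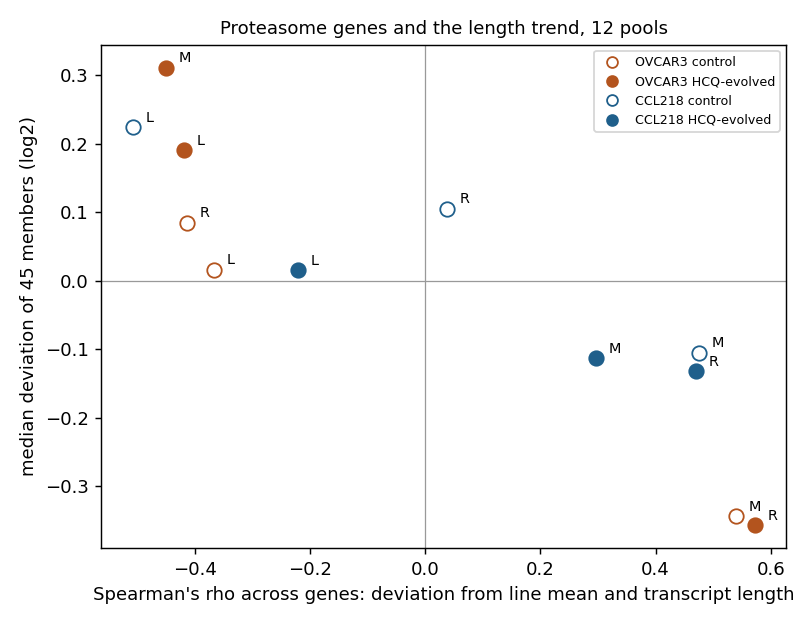
Median deviation of the 45 members from their line's mean (log2 CPM, y axis) against Spearman's rho, across all genes tested, between deviation and transcript length (x axis), for each of the 12 pools. Most pools in which long transcripts ran high hold the members low, with OVCAR3 control M and OVCAR3 evolved R at the lower right. CCL218 control R, with a rho of 0.0375, holds them above the mean.

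**Figure D4:**
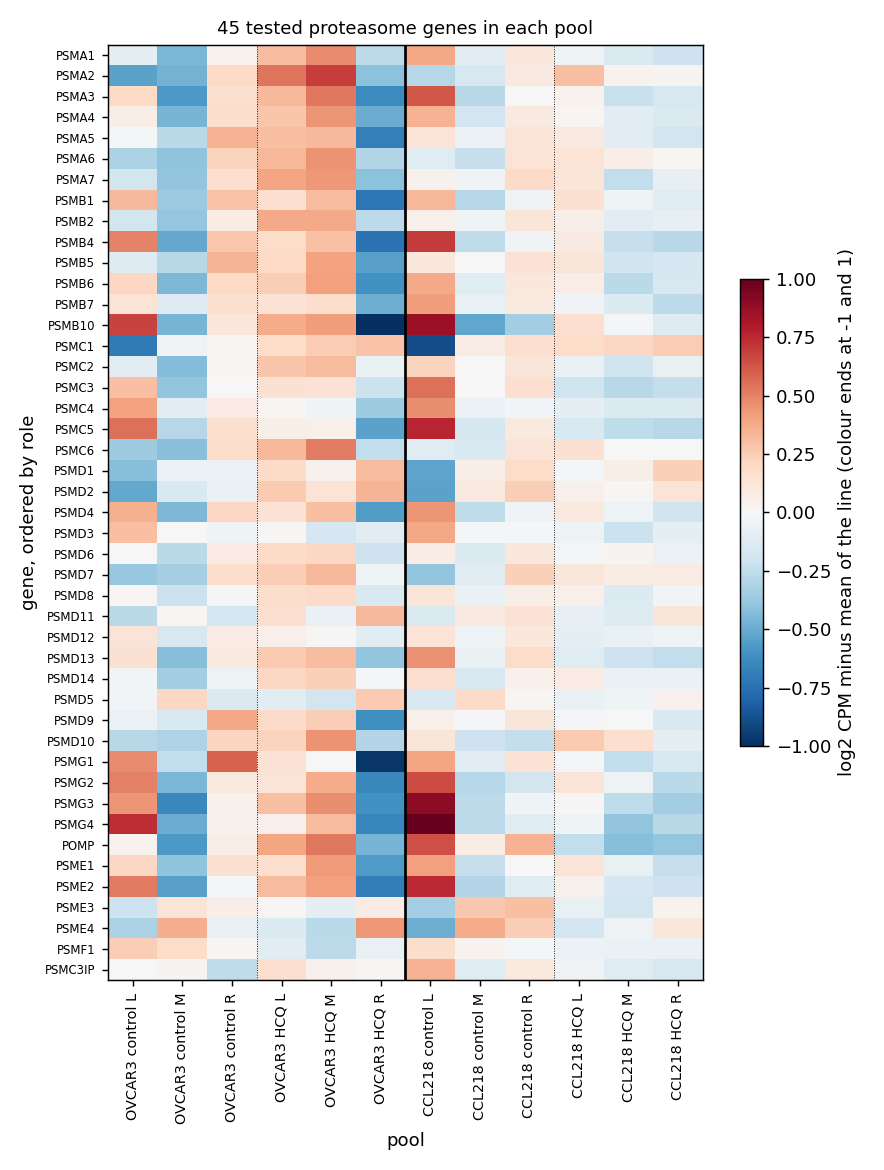
Deviation of each of the 45 members (rows, by role) from the mean of its line in each pool (columns), as log2 CPM, with red above and blue below the mean and colours ending at -1 and 1. OVCAR3 control M and evolved R are blue in most rows, CCL218 control L is red in most rows, and PSMC1, PSMD1, PSMD2 and PSME4 are among those that run against the rest in that pool.

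The spread between pools was wider in OVCAR3 than in CCL218. The median SD within groups on the log2 scale was 0.359 for members in OVCAR3, against 0.316 over all genes. In CCL218 it was 0.197 for members and 0.231 over all genes.

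Whether the evolved change differed between the lines was tested in one fit of all 12 libraries. No member passed in edgeR, DESeq2 or voom, beside 0.872% of all genes in edgeR. Of all 12613 genes DESeq2 called 306 above and 157 below 0, and voom called 105 and 23. At an unadjusted p under 0.05 there were 2 members in edgeR, POMP and PSMC2, beside 9.11% of all genes. The members' median difference was -0.19, with 5 above and 40 below 0. Over all 12613 genes tested it was -0.030, with 5842 above and 6771 below 0. Leaving out 1 pool at a time moved the members' median between -0.38 and -0.10. Their signs then ran from 3 above and 42 below 0 to 15 above and 30 below. After POMP and PSMC2 the next smallest p belonged to PSMA1, an alpha subunit, whose difference was -0.62 (SE 0.29, adjusted p = 0.587). PSMA1 had 201, 157 and 220.4 CPM in OVCAR3 control pools, and 266, 297 and 179 CPM in evolved pools. In CCL218 it had 178, 126 and 146 CPM in control pools and 132, 123 and 118 CPM in evolved pools. The groups overlapped in both lines.

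The control pools of the lines were compared in that fit too. No member differed between CCL218 and OVCAR3 control pools at an adjusted p under 0.05 in edgeR, beside 3.42% of all genes. At an unadjusted p under 0.05 there were 4, beside 14.5% of all genes. PSMD11, a lid subunit, was higher in CCL218 by 0.37 (SE 0.14, adjusted p = 0.253). The alpha subunit PSMA4, the beta subunit PSMB1 and POMP were lower, at -0.57, -0.63 and -0.61 (adjusted p = 0.325, 0.328 and 0.315). With the length and GC trend removed 5 members were called (POMP, PSMA1 and PSMB1 lower, PSMD11 and PSME4 higher in CCL218), beside 17.1% of all genes called by that fit. With the block added as well 7 were called, beside 18.5% of all genes.

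Among 28 other genes of the pathway, listed by known function, 1 rose in CCL218 and 0 changed in OVCAR3 at an adjusted p under 0.05, beside 3.82% of all genes called higher in CCL218. The medians were 0.025 in CCL218 and 0.13 in OVCAR3. At an unadjusted p under 0.05 there were 2 higher and 1 lower in CCL218 and 0 in OVCAR3, beside 12.5% and 12.7% of all genes in CCL218.

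The gene that rose was PAAF1, a chaperone that binds ATPases of the 19S base before it joins the core (chr11:73876699-73931114, hg38, plus strand). In CCL218 it had 32.4, 34.5 and 36.9 CPM in control pools and 61.7, 63.2 and 56.5 CPM in evolved pools. Every evolved pool was well above every control pool. The log2 fold change was 0.78 (SE 0.12, edgeR quasi-likelihood adjusted p = 0.0135). Leaving out 1 pool gave log2 fold changes of 0.74 to 0.83 and adjusted p-values of 0.00058 to 0.110, above the threshold without control pool R or any evolved pool. In OVCAR3 the pools overlapped, and the log2 fold change was 0.27 (SE 0.20, adjusted p = 0.552). Its gene body overlaps COA4 on the opposite strand, and whether strand was used in counting is not given in the sources used here. The same limit holds for PSMC1, which overlaps NRDE2, and PSMF1, which overlaps TMEM74B, both on the opposite strand. PSMC2 overlaps SLC26A5 and DNAJC2 on the opposite strand and PMPCB on its own strand.

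PAAF1 and POMP thus moved in opposite directions in CCL218, while the 3 base chaperones within the rule did not pass the test. PSMD5, PSMD9 and PSMD10 had log2 fold changes of -0.072, -0.14 and 0.19 there (adjusted p = 0.746, 0.508 and 0.497). The 19S subunits with other symbols gave -0.64 for ADRM1, a ubiquitin receptor (SE 0.25, adjusted p = 0.172), and -0.66 for SEM1 (SE 0.36, adjusted p = 0.298). With plate position as a block, ADRM1 was called lower (-0.60, adjusted p = 0.0336). FBXO7, an F-box protein that binds PSMF1, had 60.1, 62.5 and 68.6 CPM in CCL218 control pools and 90.6, 90.9 and 87.3 CPM in evolved pools. The pools did not overlap, and the log2 fold change was 0.47 (SE 0.11, adjusted p = 0.0544), just outside the threshold in edgeR. It was inside it in voom and DESeq2 (adjusted p = 0.0488 and 0.000194). FBXO7 lies on chromosome 22, for which the paper inferred selected gains in both lines, and the part of copy number was not tested.

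NFE2L1, the transcription factor of the proteasome genes, overlapped between groups in both lines. It had 213, 301 and 203 CPM in OVCAR3 control pools and 217, 201 and 376 CPM in evolved pools. In CCL218 it had 225, 313 and 282 CPM in control pools and 298, 325 and 333 CPM in evolved pools. The log2 fold changes were 0.13 (SE 0.30, edgeR adjusted p = 0.874) and 0.20 (SE 0.14, adjusted p = 0.414).

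NFE2L1 binds antioxidant response elements, so promoters were searched for the core TGACNNNGC and, as a second common promoter box, for CCAAT, each on both strands. RefSeq windows of 250 bases before to 50 after the start (GRCh38.p14) were found for 42 of the 48 members. The TGACNNNGC core was in 12 of them (28.6%), against 13.6% of 27305 promoters in all, and CCAAT was in 19 (45.2%), against 35.7%. The windows below are those of the gene that fell in CCL218, POMP (chr13:28658880-28659179, plus strand), the gene that rose, PAAF1 (chr11:73876749-73877048, plus strand), the ATPase PSMC3 (chr11:47426390-47426689, minus strand), and, as an example holding both motifs, the lid subunit PSMD3 (chr17:39980557-39980856, plus strand). They are written 5′ to 3′ along the gene with matches in capitals.
POMP: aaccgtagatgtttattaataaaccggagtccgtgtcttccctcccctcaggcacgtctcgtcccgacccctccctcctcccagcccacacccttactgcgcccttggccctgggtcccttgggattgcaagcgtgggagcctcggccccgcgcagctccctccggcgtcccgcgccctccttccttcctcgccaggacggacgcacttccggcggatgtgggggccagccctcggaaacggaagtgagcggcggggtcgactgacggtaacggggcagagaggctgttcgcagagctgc
PAAF1: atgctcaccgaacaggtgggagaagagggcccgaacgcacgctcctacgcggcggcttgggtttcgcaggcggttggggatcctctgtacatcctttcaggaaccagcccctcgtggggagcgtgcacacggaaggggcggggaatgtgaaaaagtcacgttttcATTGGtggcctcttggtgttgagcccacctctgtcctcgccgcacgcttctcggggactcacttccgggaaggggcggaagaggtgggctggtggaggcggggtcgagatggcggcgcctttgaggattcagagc
PSMC3: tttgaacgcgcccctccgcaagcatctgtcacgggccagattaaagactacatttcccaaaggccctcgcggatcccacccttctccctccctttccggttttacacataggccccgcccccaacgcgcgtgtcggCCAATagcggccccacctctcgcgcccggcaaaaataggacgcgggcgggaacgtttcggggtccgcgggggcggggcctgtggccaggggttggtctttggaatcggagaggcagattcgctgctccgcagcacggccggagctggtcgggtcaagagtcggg
PSMD3: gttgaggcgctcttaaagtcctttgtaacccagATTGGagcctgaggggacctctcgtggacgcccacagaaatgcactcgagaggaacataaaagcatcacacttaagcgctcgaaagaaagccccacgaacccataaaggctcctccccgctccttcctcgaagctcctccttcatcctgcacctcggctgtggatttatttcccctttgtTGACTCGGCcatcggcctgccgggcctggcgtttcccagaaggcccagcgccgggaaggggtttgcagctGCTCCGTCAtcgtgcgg
POMP held neither motif in this window. PAAF1 and PSMC3 each held 1 CCAAT box and no TGACNNNGC core, and PSMD3 held 1 CCAAT box and 2 cores, 1 on each strand. The PAAF1 window, set by the RefSeq start, lies inside the gene body of GENCODE 44, which begins at 73876699. Bases before that start were not searched. A match is a run of letters and was not tested as a binding site.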

How the data were processed

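The authors aligned reads with STAR to hg38, removed duplicates and counted them per gene with featureCounts (versions not given in the sources used here); the deposited values are raw counts of 28278 symbols in 12 libraries, and every column of per-library values was used. Each line was fitted alone with edgeR 4.0.16 (R 4.3.3; TMM scaling, robust quasi-likelihood test) on genes reaching 1 CPM in 3 or more libraries, with Benjamini-Hochberg adjustment over all genes and a threshold of 0.05. Differences between lines came from one fit of all libraries. The tests were run on simulated counts drawn independently for each gene. These held no trend on length or GC content, so that check does not cover the trend seen in these pools. Alternatives were other size factors, no filter, DESeq2 1.42.0, limma 3.58.1 voom, one fit of 12, plate position as a block, removal of the trend on length and GC content (spline with 5 degrees of freedom) and leaving out each pool. Deviations of same-position pools had correlations of 0.542, 0.27 and 0.227 in CCL218 and of 0.422, -0.691 and -0.5 in OVCAR3. These correlations come from the libraries tested here and from means of 3 pools, so they are not independent. Whether they reflect plate position or the trend on transcript length was not tested, so the block is given as an alternative only.

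Members and lists were chosen with earlier results of these data known. Pool values were given for members past the threshold, the 3 smallest p-values per line and in the difference, PSMB5, PSMB6, PSMB7, PSMB10 and POMP, and from the pathway list for called genes, NFE2L1, PSMB8 and PSMB9; FBXO7 was added after its values were seen. Coordinates and transcript lengths are from GENCODE 44, which matched 25763 symbols, and promoters from RefSeq.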

Additional observations from a re-analysis of the deposited data

How the results depend on the processing

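The count of 1 member lower in CCL218 became 0 with all 12 libraries in one fit and 2 with DESeq2, with the length and GC trend removed, and with that removal plus the plate-position block. It ranged from 0 to 4 when 1 pool was left out, at 0 without control pool R or any evolved pool and at 4 without control pool L. The count of members higher in CCL218 ranged from 0 to 1, and was 1 without control pool L. In OVCAR3 the count of members higher became 1 with the length and GC trend removed. Between control pools of the lines 5 members were called with that trend removed and 7 when the block was added, beside 17.1% and 18.5% of all genes. The 28 pathway genes in CCL218 were checked this way after the data were seen. The 1 called higher became 2 with DESeq2, voom and removal of the trend without or with the block. Over all 12241 genes these fits called 1104, 537, 1162 and 1099 higher. The pathway count higher ranged from 0 to 2 without 1 pool, beside 72 to 1646 of all genes. The 0 called lower became 1 with the block, with the trend removed and with both, beside 787, 939 and 958 of all genes. The pathway count lower ranged from 0 to 2 without 1 pool, beside 30 to 1401 of all genes. The causes were not tested. In CCL218, set against the fit without it, the block alone changed the call of ADRM1 and of no other gene named here. It left the count in CCL218 at 1 and those in OVCAR3 at 0, where pools share a position but not their deviations. The change from control to evolved pools differed between the lines for 0 members under every alternative.

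Estimates near 0 changed sign. PSMC3 in OVCAR3 was -0.0073 in one fit of all libraries, and PSMB10 in CCL218 was 0.20 with the trend removed and 0.23 with the block added. Leaving out 1 pool gave, in OVCAR3, -0.15 to 0.19 for PSMC3, -0.057 to 0.29 for PSMD13, -0.13 to 0.27 for PSMB5, -0.15 to 0.28 for PSMB6, -0.21 to 0.068 for PSMB7, -0.41 to 0.18 for PSMB10 and -0.23 to 0.33 for NFE2L1. In CCL218 it gave -0.12 to 0.22 for PSMD2 and -0.40 to 0.42 for PSMB10. For the difference between lines it gave -0.33 to 0.11 for PSMC1 and -0.32 to 0.62 for PSMB10.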
